A study of Homo sapiens with 16 samples.

Results

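Long intergenic noncoding RNAs are transcripts without a protein product whose genes lie between protein-coding genes, and many carry a LINC number as their name. The rule took every row annotated as lncRNA whose name was LINC followed only by digits, and it found 144 of the 16324 genes in each of the authors' deposited tables. The assay was RIP-seq, in which RNA that stays with a tagged protein is sequenced. The cells carry the label UM-SCC-1, the name of an established head and neck squamous cell carcinoma line. Cells were infected with lentivirus for a Strep-tagged protein and selected with puromycin. The titles give 3 StrepTactin-XT pull-down and 3 input libraries of Strep-ALKBH5, 2 and 2 of Strep-RBM33, and 3 and 3 of Strep-Vec-1, the control vector with the tag. Per the labels, the pull-down is all that separates a pull-down group from its input, and every group carries a tagged construct.

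ALKBH5 removes the methyl group of N6-methyladenosine (m6A), the most common internal mark of messenger RNA, and works mainly in the nucleus. RBM33 is an RNA-binding protein, and the title of the series calls it a reader of that mark. Many LINC transcripts are spliced and polyadenylated like messenger RNA, but they are on the whole less abundant and more often kept in the nucleus or on chromatin. The total RNA libraries used here do not select for poly(A) tails.

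Each bait has 1 table of the authors' own comparison, 2 in all, with no value per library, so the depth of each library is unknown and no error stands beside a value. Listed for every gene are the log2 fold change, the log2 CPM averaged over the libraries of the fit (CPM is the count scaled to library size) and p-values of an F test by edgeR. Which groups were compared, and which way the ratio runs, are not stated, so values are called positive or negative as the authors' deposited tables give them. The comparisons bear the word siCtrl, taken to mean control siRNA, although no sample title names one. The design also names cells with siRNA against RBM33, which were not analysed here. Nothing says that replicates were separate cultures, so the p-values may measure only technical spread. A row is called at the authors' adjusted p under 0.05.

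The label of the cells was checked against marker genes. Of 7 squamous epithelial markers, KRT5, KRT14, KRT6A, TP63 and SFN were without a row in the authors' deposited tables as used here. The 2 with a row were ITGA6, an integrin chain, at an average log2 CPM of 3.89 by the authors' deposited table for ALKBH5, and CDH1, E-cadherin, at 0.60. The neurofilament mRNAs NEFL and NEFM, known from embryonic kidney lines as well as neurons, stood at an average log2 CPM of 8.10 and 7.72 in the same of the authors' deposited tables, and at 7.42 and 7.18 in that for RBM33. Both were called negative for both baits, at a log2 fold change of -1.90 and -1.91 for ALKBH5 and -1.53 and -1.19 for RBM33 by the authors' deposited tables. COL1A1, a fibroblast marker, stood at 4.42 and COL3A1 at 2.63 by the authors' deposited table for ALKBH5, and PDGFRB and the haematopoietic markers PTPRC and CD74 had no row. Fewer cells of a type and less RNA per cell cannot be told apart in such bulk samples, and what these markers mean for the LINC values was not tested. These markers do not bear out the squamous label, and the cells are called by it only as a name.

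More LINC transcripts were positive than negative for both baits, and most were positive for ALKBH5. In the authors' deposited table for ALKBH5, 90 of the 144 members were positive, 2 negative and 52 not called, where 30.5% of all listed genes were positive and 29.1% negative. RBM33 had 60 positive members, 4 negative ones and 80 without a call in its own of the authors' deposited tables, where 24.0% of all listed genes were positive and 27.0% negative. By the authors' deposited table for ALKBH5, the members' median log2 fold change was 1.73, with quartiles of 0.52 and 2.68, against a median of 0.03 over all listed genes. The members' median for RBM33 was 1.01 by the authors' deposited table, with quartiles of 0.03 and 1.89, against -0.02 over all listed genes. With an adjusted p under 0.01, the authors' deposited table for ALKBH5 gave 73 positive and 2 negative members, where 24.4% and 23.6% of all listed genes were called. By the same rule the authors' deposited table for RBM33 gave 41 and 2, where 16.6% and 21.0% were called. Asking for a size of at least 1 as well as an adjusted p under 0.05 gave 84 positive and 2 negative members for ALKBH5 by the authors' deposited table, beside 21.0% and 16.2% of all listed genes. For RBM33 the same rule gave 56 and 4 by the authors' deposited table, beside 17.1% and 16.7%. Unadjusted p-values under 0.05 gave 96 and 2 members for ALKBH5 (32.4% and 30.8% of all listed genes) and 69 and 6 for RBM33 (27.0% and 29.8%) by the authors' deposited tables.

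Other long noncoding RNAs leaned the same way, as the plot of medians by class shows. In the authors' deposited table for ALKBH5, 62.5% of LINC members were positive, against 46.6% of the 1527 other lncRNA rows and 27.5% of the 13210 protein-coding rows. The shares for RBM33 were 41.7%, 35.2% and 21.5% by the authors' deposited table. Negative calls made up 1.39% of LINC members for ALKBH5, against 4.98% of other lncRNA rows and 33.3% of protein-coding rows by the authors' deposited table. Host genes of small RNAs, whose names end in HG, were the only lncRNA name class with a median above that of LINC members for ALKBH5, at 1.77 over 42 rows by the authors' deposited table. Their median for RBM33 was 1.57 by the authors' deposited table, and those of antisense (-AS, 313 rows) and divergent (-DT, 61 rows) lncRNAs were 0.72 and 0.81. LINC members did not stand above every lncRNA class for RBM33, since 59.5% of HG rows and 48.6% of the 179 lncRNA rows with other names were positive, the last with a median of 1.00, by the authors' deposited table. These shares and medians are descriptions, since no test between classes was made.

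**Figure D1:**
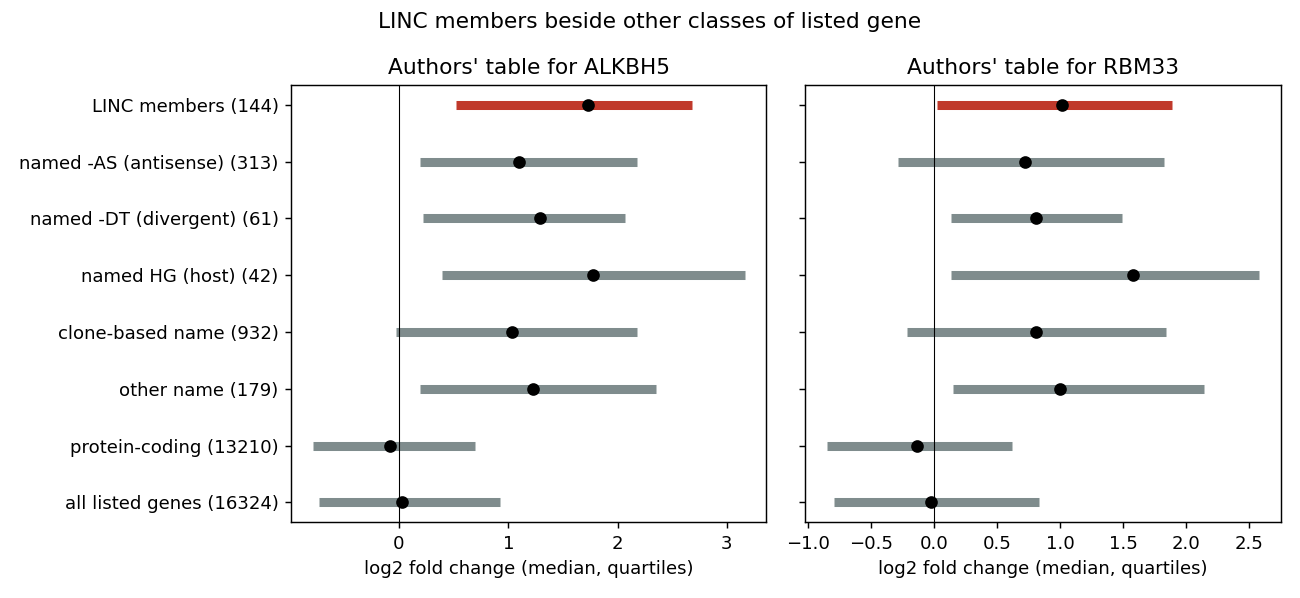
Median (dot) and quartiles (bar) of the log2 fold change of LINC members, of other lncRNA rows by kind of name, of protein-coding rows and of all listed genes, with the number of rows in parentheses, by the authors' deposited tables for ALKBH5 (left) and RBM33 (right). The LINC median lies at 1.73 for ALKBH5 and 1.01 for RBM33, and the protein-coding median at -0.08 and -0.13.

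LINC00342 (ENSG00000232931, chromosome 2, 95807052 to 95835003, minus strand, hg38) had the highest value of the class for ALKBH5, 5.13 by the authors' deposited table (adjusted p = 7.19e-09 by edgeR). For RBM33 the authors' deposited table gave it 3.75 (adjusted p = 0.00653). LINC00894 followed for ALKBH5 at 4.99 (adjusted p = 2.08e-06) and had 3.12 for RBM33 (adjusted p = 0.000477) by the authors' deposited tables. RefSeq now calls it EOLA2-DT, a transcript that diverges from the start of the gene EOLA2. Beyond these, LINC00937 had 4.87, LINC00648 4.87, LINC02887 4.78, LINC01359 4.75 and LINC00271 4.72 by the authors' deposited table for ALKBH5. The same 5 had 2.02, 2.65, 3.62, 2.97 and 3.01 by the authors' deposited table for RBM33, and all were called there. Values of that size were a larger share of LINC members than of the tables: 28 members, or 19.4%, stood at 3 or above by the authors' deposited table for ALKBH5, against 3.69% of all listed genes.

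The highest values for RBM33 were those of LINC01001 (chromosome 11, 127204 to 139612) at 3.93 and LINC01002 (chromosome 19, 198264 to 246544) at 3.93 by the authors' deposited table (adjusted p = 3.17e-05 and 1.21e-05). For ALKBH5 they had 4.71 and 4.59 by the authors' deposited table. LINC02604 on chromosome 7 had 4.40 for ALKBH5 and 3.56 for RBM33, and LINC00174, also on chromosome 7, had 3.83 and 3.55 by the authors' deposited tables. LINC00412 on chromosome 13 had 3.77 for ALKBH5 and 3.62 for RBM33 by the authors' deposited tables, but it lies inside LINC02340 on the same strand, which had 3.07 and 1.95. RefSeq gives both rows the symbol LINC00412, so they may be parts of 1 gene counted here as 2 members. LINC01355 had 3.73 for ALKBH5 and 3.17 for RBM33 by the authors' deposited tables. LINC00235 on chromosome 16 had 2.77 for ALKBH5 and the higher value, 3.49, for RBM33 by the authors' deposited tables. In all, 13 members stood at 3 or above by the authors' deposited table for RBM33, which is 9.03% of members against 2.38% of all listed genes.

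Some members share sequence around a RefSeq start, which need not be the listed start, and whether their rows share reads was not tested. RefSeq start windows (250 bases before to 50 after a start, build GRCh38.p14) were held for 91 of the 144 members, and 3 pairs matched at 90% or more over at least 100 bases without gaps. LINC01001 and LINC01002 matched at 98.7% over 233 bases, and the stretch is shown because it makes the likeness of the pair visible; capitals mark the 3 positions at which they differ. The first line is chr11:131871-132103 and the second chr19:202160-202392, both on the minus strand, and both lie within the listed span of the member.
LINC01001: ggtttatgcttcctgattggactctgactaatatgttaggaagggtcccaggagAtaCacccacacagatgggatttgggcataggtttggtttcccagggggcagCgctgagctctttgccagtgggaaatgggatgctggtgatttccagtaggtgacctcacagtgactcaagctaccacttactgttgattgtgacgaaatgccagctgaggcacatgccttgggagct
LINC01002: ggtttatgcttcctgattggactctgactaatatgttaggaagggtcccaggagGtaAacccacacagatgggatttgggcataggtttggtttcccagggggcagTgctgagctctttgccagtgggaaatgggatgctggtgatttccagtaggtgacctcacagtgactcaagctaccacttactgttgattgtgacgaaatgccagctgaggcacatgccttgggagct

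LINC01106 and LINC01123, both on chromosome 2 and on opposite strands, matched at all 289 bases compared. They were chosen for this match after their values were seen. The shared stretch, chr2:110384487-110384775 on the minus strand for LINC01106 and chr2:109986730-109987018 on the plus strand for LINC01123, is shown once, without capitals because no position differs. It lies before the listed start of both members, so it shows no likeness of the counted sequence.
LINC01106: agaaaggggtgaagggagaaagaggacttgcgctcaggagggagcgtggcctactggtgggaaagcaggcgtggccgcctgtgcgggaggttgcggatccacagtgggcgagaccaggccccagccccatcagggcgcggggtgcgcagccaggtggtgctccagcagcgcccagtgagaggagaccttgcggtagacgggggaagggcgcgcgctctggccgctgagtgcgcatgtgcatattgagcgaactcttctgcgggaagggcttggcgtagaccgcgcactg
LINC01106 had 1.29 for ALKBH5 (adjusted p = 0.0012) and 0.93 for RBM33 (adjusted p = 0.0457) by the authors' deposited tables. LINC01123 had 1.36 (adjusted p = 0.000559) and 1.00 (adjusted p = 0.0298) there. No source used here states how reads that match several places were counted.

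The last pair did not have like values. LINC00623 and LINC01138, on either side of the centromere of chromosome 1, matched at 98.6% over 218 bases, and capitals again mark the 3 differences between chr1:120912967-120913184 (plus strand) and chr1:148459871-148460088 (minus strand). The stretch lies within the listed span of LINC01138 but reaches only the first listed base of LINC00623.
LINC00623: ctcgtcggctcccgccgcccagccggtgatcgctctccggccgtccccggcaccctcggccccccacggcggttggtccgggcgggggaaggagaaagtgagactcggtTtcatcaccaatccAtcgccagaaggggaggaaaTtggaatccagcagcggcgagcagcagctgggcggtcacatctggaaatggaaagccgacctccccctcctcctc
LINC01138: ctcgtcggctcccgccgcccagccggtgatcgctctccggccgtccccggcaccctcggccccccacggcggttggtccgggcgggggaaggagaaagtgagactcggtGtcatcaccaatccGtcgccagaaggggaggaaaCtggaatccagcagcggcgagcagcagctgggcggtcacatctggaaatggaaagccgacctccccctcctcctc
LINC01138, which has been described as binding the arginine methyltransferase PRMT5 in liver cancer, was positive for ALKBH5 at 2.44 (adjusted p = 5.38e-06) and for RBM33 at 1.05 (adjusted p = 0.0278) by the authors' deposited tables. LINC00623 had -0.50 (adjusted p = 0.208) and -0.29 (adjusted p = 0.521) by the authors' deposited tables and was called in neither.

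Negative LINC transcripts were few. LINC00467 (ENSG00000153363, chromosome 1, 211382736 to 211435570, plus strand), which has been described as coding for a small mitochondrial protein in colorectal cancer, stood at -1.55 for ALKBH5 (adjusted p = 3.26e-05) by the authors' deposited table. It stood at -1.75 for RBM33 (adjusted p = 2.01e-05) by the authors' deposited table. LINC02609 (chromosome 1, 90769086 to 90851658, minus strand) stood at -1.25 for ALKBH5 (adjusted p = 2.37e-05) and -1.55 for RBM33 (adjusted p = 0.000142) by the authors' deposited tables. Their average log2 CPM was 5.21 and 4.68 by the authors' deposited table for ALKBH5. The other 2 negative calls were made for RBM33, in rows with few reads. LINC01419 had -5.82 (adjusted p = 0.0346) and LINC01023 -3.71 (adjusted p = 0.0369) by the authors' deposited table for RBM33, with an average log2 CPM of -0.45 and 0.00. For ALKBH5 they stood at -0.96 (adjusted p = 0.5) and -2.38 (adjusted p = 0.102) by the authors' deposited table.

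LINC00632 had the highest level of the class per length and was called in neither direction. It lies on chromosome X (140709562 to 140793215, plus strand) and is known as the precursor of the circular RNA CDR1as, which carries many binding sites for the microRNA miR-7. Its average log2 CPM was 9.43 by the authors' deposited table for ALKBH5 and 9.34 in that for RBM33. Per kilobase of listed length, the average log2 CPM from the authors' deposited tables was 4.58 and 4.49, against 0.14 and -0.03 for the median member. The log2 fold change of LINC00632 was -0.02 for ALKBH5 (adjusted p = 0.923) and -0.17 for RBM33 (adjusted p = 0.551) by the authors' deposited tables. CDR1, listed on the opposite strand over 789 of its bases, stood at 2.10 for ALKBH5 (adjusted p = 0.00428) and 1.38 for RBM33 (adjusted p = 0.135) by the authors' deposited tables. The circular RNA has no row of its own that was matched here. The strand setting of the counting is not stated in any source used here, and reads of these transcripts therefore cannot be told apart.

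Other members with many reads had both larger and smaller values. LINC00662, with the longest listed length of the class (33198 bases), had an average log2 CPM of 5.42 and a log2 fold change of 2.05 for ALKBH5 (adjusted p = 2.66e-07) by the authors' deposited table. For RBM33 its log2 fold change was 1.51 (adjusted p = 2.46e-05) by the authors' deposited table. LINC01184, which RefSeq now calls SLC12A2-DT, had an average log2 CPM of 5.40 and a log2 fold change of 0.40 for ALKBH5 (adjusted p = 0.0228) and -0.08 for RBM33 (adjusted p = 0.7) by the authors' deposited tables. That value of LINC01184 was the smallest positive call for ALKBH5. LINC02693 had 0.79 for ALKBH5 (adjusted p = 0.000187) and 0.30 for RBM33 (adjusted p = 0.266) by the authors' deposited tables.

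Members with few reads were less often called, a description with no test. By the authors' deposited table for ALKBH5, 17 of the 52 members not called had a log2 fold change of at least 1 in size, and their median average log2 CPM was 0.37, against 2.24 for called members. The corresponding number for RBM33 was 19 of 80, with a median of 0.85 against 2.20, by the authors' deposited table. The members were also split into 3 equal bands by the mean of their average log2 CPM for the 2 baits. In the lowest band 19 of 48 were positive, in the middle 35 of 48 and in the highest 36 of 48 by the authors' deposited table for ALKBH5. For RBM33 the numbers were 6, 24 and 30 of 48 by the authors' deposited table. In the lowest band, 12.5% of LINC members and 13.3% of other lncRNA rows were positive for RBM33, and 39.6% and 24.5% for ALKBH5, by the authors' deposited tables. Other lncRNA rows rose as well, to 59.7% in the middle and 66.5% in the highest band for ALKBH5. For RBM33 they had 46.9% and 56.3%, against 50% and 62.5% of LINC members. Protein-coding rows had 15.3%, 29% and 28.5% in the 3 bands for ALKBH5, and 7.46%, 18.4% and 23.2% for RBM33. Over all listed genes the shares were 30.5% and 24.0%. Closest to the threshold were LINC00858 (1.34, adjusted p = 0.0493) and LINC01715 (0.71, adjusted p = 0.0502) by the authors' deposited table for ALKBH5. For RBM33 they were LINC02615 (1.42, adjusted p = 0.0469) and LINC00910 (1.36, adjusted p = 0.0511) by the authors' deposited table.

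**Figure D2:**
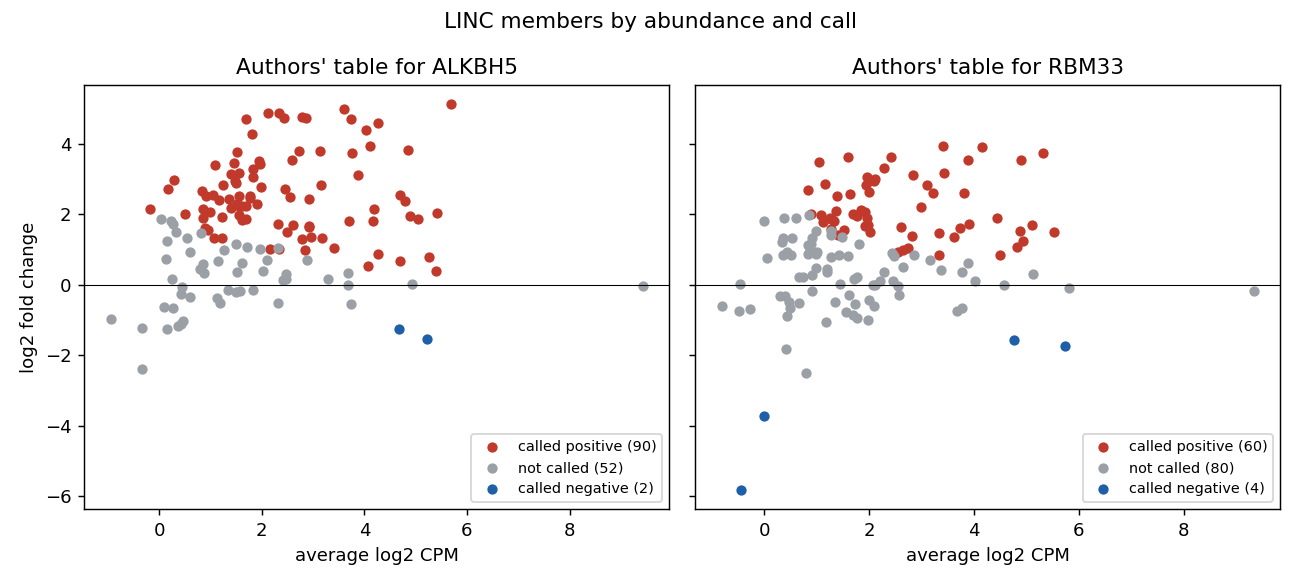
Log2 fold change against average log2 CPM of the 144 LINC members, coloured by call, by the authors' deposited tables for ALKBH5 (left) and RBM33 (right). The point at the far right is LINC00632, at an average log2 CPM of 9.43 and 9.34, and the negative calls at higher abundance are LINC00467 and LINC02609.

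The listed gene length, which is not that of 1 transcript, went with the values. Among the 48 shortest members, 18 were positive for ALKBH5 and 11 for RBM33 by the authors' deposited tables. In the middle band, split off at 2774 and 6111 bases, 31 and 18 of 48 were positive, and among the 48 longest 41 and 31, by the authors' deposited tables. The median log2 fold change in the 3 bands was 1.10, 1.35 and 2.34 for ALKBH5 and 0.58, 0.86 and 1.60 for RBM33 by the authors' deposited tables. Within the same length bands, 85.4% of long LINC members were positive for ALKBH5, against 75.2% of long other lncRNA rows and 44.2% of long protein-coding rows by the authors' deposited table. In the short band the shares were 37.5%, 31.4% and 7.33% for ALKBH5 by the authors' deposited table. For RBM33 the LINC share lay near that of other lncRNA rows and was below it in the middle band, with 22.9% against 20.8% in the short, 37.5% against 45% in the middle and 64.6% against 62.6% in the long band by the authors' deposited table. Across the 144 members, length and log2 fold change had a Spearman rho of 0.30 for ALKBH5 and 0.29 for RBM33 by the authors' deposited tables, a description over genes that share the same libraries. The rho with length was 0.33 and 0.31 for other lncRNA rows and 0.41 and 0.45 for protein-coding rows. The members' average log2 CPM had a rho of 0.22 and 0.20 with the log2 fold change. The 3 length bands of members also differed in reads. Their median average log2 CPM was 1.30, 2.11 and 2.89 for ALKBH5 and 1.23, 1.99 and 2.78 for RBM33, so length and abundance were not separated here.

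**Figure D3:**
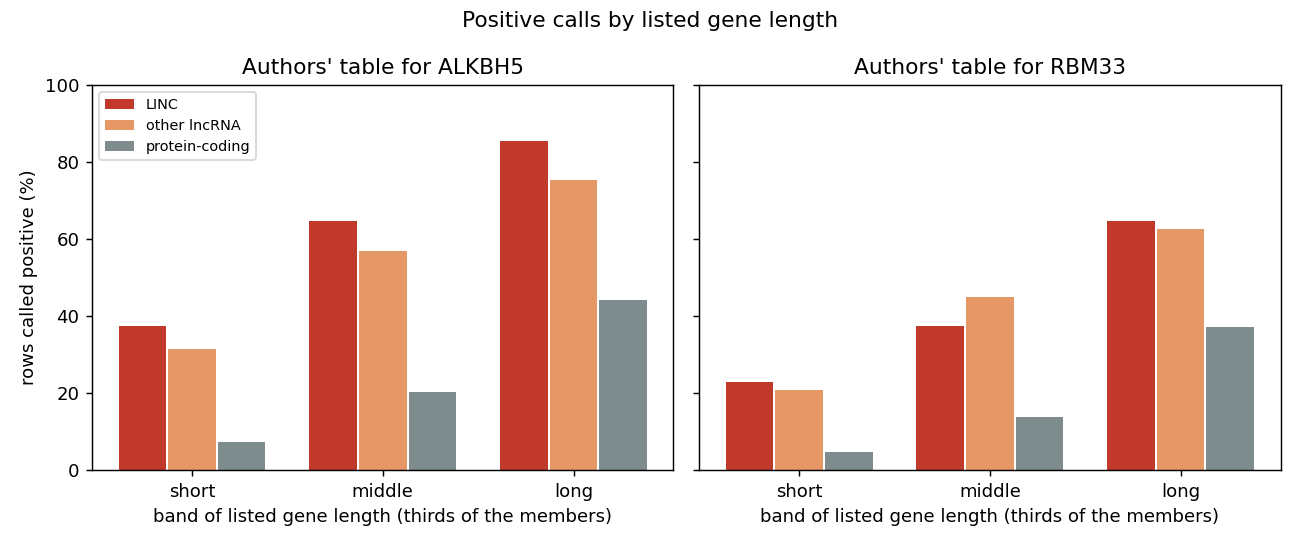
Share of rows called positive (bars, percent) among LINC members, other lncRNA rows and protein-coding rows in 3 bands of listed gene length, split at 2774 and 6111 bases, by the authors' deposited tables for ALKBH5 (left) and RBM33 (right). The LINC share goes with length, from 37.5% to 64.6% and 85.4% for ALKBH5 and from 22.9% to 37.5% and 64.6% for RBM33.

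RefSeq places mature microRNAs inside 4 members, of which 3 were positive for both baits and LINC01618, described with the small RNAs, was not called. Of all 144 members, 57 were positive for both baits by the authors' deposited tables. Among all listed genes, 30.5% were positive for ALKBH5 and 24.0% for RBM33, and the share positive for both is not given here. With only 4 members, the count is no result about hosts of microRNAs. LINC00472 (chromosome 6, 71343427 to 71420745, minus strand), described as a tumour suppressor in breast cancer, contains the hairpins of miR-30a and miR-30c-2. It stood at 4.73 for ALKBH5 (adjusted p = 4.37e-07) and 3.32 for RBM33 (adjusted p = 0.000413) by the authors' deposited tables. LINC00461, which RefSeq now calls MIR9-2HG, contains a hairpin of miR-9, a microRNA of neural progenitors, and was singled out after its values were seen. It stood at 3.51 for ALKBH5 (adjusted p = 0.000392) and 1.60 for RBM33 (adjusted p = 0.0362) by the authors' deposited tables. The mature microRNAs, from RefSeq, are shown because they name what these transcripts carry, with the seed (bases 2 to 8) in capitals; the 5p arms of both miR-30 members share theirs.
hsa-miR-30a-5p: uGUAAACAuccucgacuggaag
hsa-miR-30c-5p: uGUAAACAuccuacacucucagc
hsa-miR-30a-3p: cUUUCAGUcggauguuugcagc
hsa-miR-30c-2-3p: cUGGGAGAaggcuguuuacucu
hsa-miR-9-5p: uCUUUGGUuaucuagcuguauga
hsa-miR-9-3p: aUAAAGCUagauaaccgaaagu
The hairpins of miR-30a, miR-30c-2 and miR-9-2 were without a row of their own in the authors' deposited tables as used here.

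Members that hold a listed small RNA on the same strand need not share its value. LINC01618 on chromosome 4 spans SNORA26, an H/ACA box RNA, and stood at -0.18 for ALKBH5 (adjusted p = 0.768) and -0.01 for RBM33 (adjusted p = 0.987) by the authors' deposited tables. SNORA26 had 3.66 for ALKBH5 (adjusted p = 4.46e-05) and 3.83 for RBM33 (adjusted p = 4.81e-05) by the authors' deposited tables. SNORA26 also lies inside DANCR, another lncRNA, which shares 11230 bases of its strand with LINC01618. DANCR had 0.05 for ALKBH5 (adjusted p = 0.855) and 0.12 for RBM33 (adjusted p = 0.619) by the authors' deposited tables. Its average log2 CPM was 4.90 for ALKBH5, against 1.57 for LINC01618. The positive LINC01138 holds MIR5087, a microRNA hairpin that had -1.23 for ALKBH5 (adjusted p = 0.298) and 0.77 for RBM33 (adjusted p = 0.56) by the authors' deposited tables. It also holds RNVU1-2, a variant U1 small nuclear RNA, at -0.30 (adjusted p = 0.53) and 0.23 (adjusted p = 0.709) by the authors' deposited tables. RNVU1-4 inside LINC00623 stood at -0.19 (adjusted p = 0.79) and 1.45 (adjusted p = 0.178) by the authors' deposited tables.

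Of a list of 15 LINC genes described in carcinomas, 6 had a row in the authors' deposited tables as used here, and 9, among them LINC00460, LINC00941 and LINC01133, had none. In the authors' deposited table for ALKBH5, 5 of the 6 were positive and 1 negative; for RBM33, 3 were positive and 1 negative. Among all listed genes 30.5% were positive for ALKBH5 and 24.0% for RBM33, and 29.1% and 27.0% negative, by the authors' deposited tables. Among all LINC members, 62.5% and 41.7% were positive and 1.39% and 2.78% negative. With only 6 genes, the counts are no result about LINC genes of carcinomas. LINC00963, described in prostate cancer, stood at 1.88 for ALKBH5 (adjusted p = 1.13e-06) and 1.23 for RBM33 (adjusted p = 0.00023) by the authors' deposited tables. LINC00958, described in bladder and oral cancer, stood at 1.63 for ALKBH5 (adjusted p = 0.000272) and 0.81 for RBM33 (adjusted p = 0.0867) by the authors' deposited tables. LINC01116, described in glioma, stood at 2.16 (adjusted p = 0.0461) and 0.77 (adjusted p = 0.482) by the authors' deposited tables. It had few reads, at an average log2 CPM of -0.17 for ALKBH5 and 0.06 for RBM33. LINC00472, LINC00662 and LINC00467, given above, complete the list.

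Not every member lay between genes. In the coordinates of the authors' deposited tables, 102 members overlapped no other listed gene, 21 overlapped one on the same strand and 21 on the opposite strand only. Of 144 names, RefSeq kept 126, replaced 16, LINC02340 among them, and did not match 2, and 9 of the replacements mark a divergent transcript (-DT) and 2 an antisense one (-AS). The 102 members without overlap had 62 positive and 2 negative calls for ALKBH5 and 38 and 4 for RBM33 by the authors' deposited tables, with medians of 1.60 and 0.97. Those overlapping on the same strand had 14 positive of 21 for ALKBH5 and 12 of 21 for RBM33 by the authors' deposited tables. Those overlapping on the opposite strand only had 14 positive of 21 for ALKBH5 and 10 of 21 for RBM33, where 30.5% and 24.0% of all listed genes were positive, by the authors' deposited tables.

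Overlapping protein-coding genes mostly had lower values than the LINC member. There were 24 such pairs of 22 members, and the member's value was higher in 18 for ALKBH5 and 19 for RBM33 by the authors' deposited tables; these differences were not tested. LINC01359 lies inside the span of JAK1, a cytokine receptor kinase, on the same strand, and had 4.75 for ALKBH5 and 2.97 for RBM33, against -0.04 (adjusted p = 0.798) and 0.13 (adjusted p = 0.555) for JAK1 by the authors' deposited tables. LINC00339, chosen after its values were seen, shares 5713 bases of its strand with CDC42, a small GTPase of cell polarity. It had 1.69 for ALKBH5 and 1.64 for RBM33, against -0.48 (adjusted p = 0.00944) and -0.73 (adjusted p = 0.00194) for CDC42 by the authors' deposited tables. LINC00894 and its divergent partner EOLA2 also lay on either side of 0, with -0.66 (adjusted p = 0.00244) and -0.65 (adjusted p = 0.00579) for EOLA2 by the authors' deposited tables. LINC00271, now AHI1-DT, and AHI1, a gene of the primary cilium, were both positive, with 1.54 for ALKBH5 and 1.51 for RBM33 for AHI1 by the authors' deposited tables. The reverse order was seen for LINC00909, chosen after its values were seen, at 0.31 and 0.51 (adjusted p = 0.394 and 0.233), against 2.79 and 2.22 for the zinc finger gene ZNF407 on the other strand, by the authors' deposited tables. Set beside the nearest protein-coding gene on the chromosome, overlapping or not (median distance 15273 bases), members were higher in 116 of 144 cases for ALKBH5 and 107 of 144 for RBM33 by the authors' deposited tables. The nearest genes had medians of -0.02 for ALKBH5 and -0.15 for RBM33, near those of all protein-coding rows, -0.08 and -0.13. Of the members, 120 and 110 stood above 0. These counts may therefore only restate the difference between the classes.

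**Figure D4:**
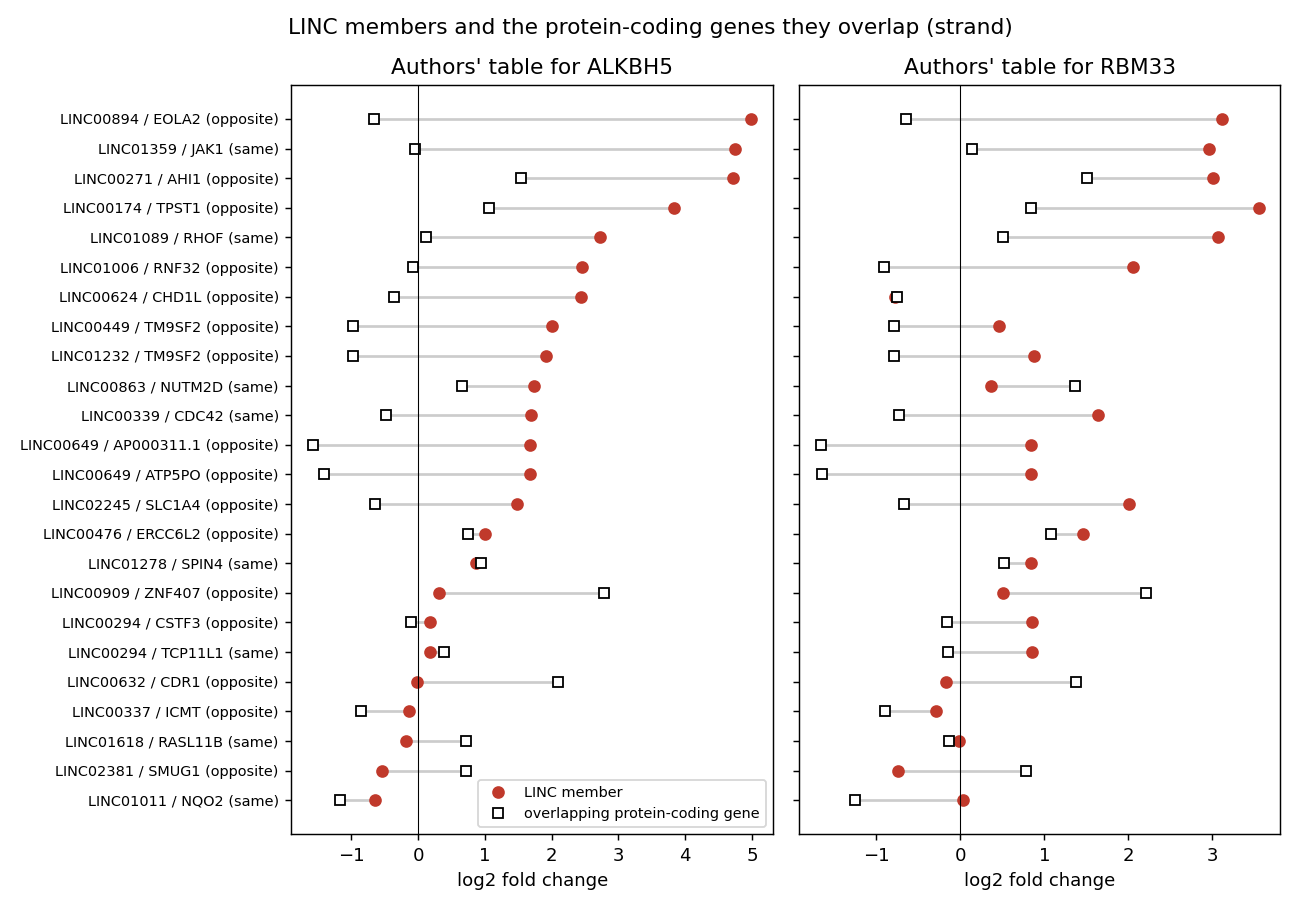
Log2 fold change of LINC members (filled circles) and of the protein-coding genes they overlap (open squares), with the strand of the overlap in parentheses, by the authors' deposited tables for ALKBH5 (left) and RBM33 (right). The LINC member lies to the right of its partner in 18 of 24 pairs for ALKBH5 and 19 of 24 for RBM33.

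Values for ALKBH5 were mostly the higher ones. Of the 144 members, 112 (77.8%) had a higher log2 fold change by the authors' deposited table for ALKBH5 than in that for RBM33, against 56% of all listed genes. The median difference, ALKBH5 minus RBM33, was 0.60 for members, 0.35 for other lncRNA rows and 0.06 over all listed genes of the authors' deposited tables. Whether the tables share libraries, or were normalized together, is not stated, and no difference between them was tested. The largest differences among called members included LINC01419, given above, and LINC01560 on chromosome X, at 2.73 for ALKBH5 (adjusted p = 0.0281) and -0.59 for RBM33 (adjusted p = 0.725) by the authors' deposited tables. LINC01560 also had few reads, at an average log2 CPM of 0.18 for ALKBH5 and -0.81 for RBM33. LINC00624, which overlaps the chromatin remodeller gene CHD1L on the opposite strand, had 2.44 for ALKBH5 (adjusted p = 0.00105) and -0.77 for RBM33 (adjusted p = 0.245) by the authors' deposited tables. LINC01967 on chromosome 3 had 3.46 (adjusted p = 5.43e-05) and 0.93 (adjusted p = 0.306) by the authors' deposited tables. LINC00937, called in both of the authors' deposited tables, differed by 2.85 between 4.87 for ALKBH5 and 2.02 for RBM33.

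**Figure D5:**
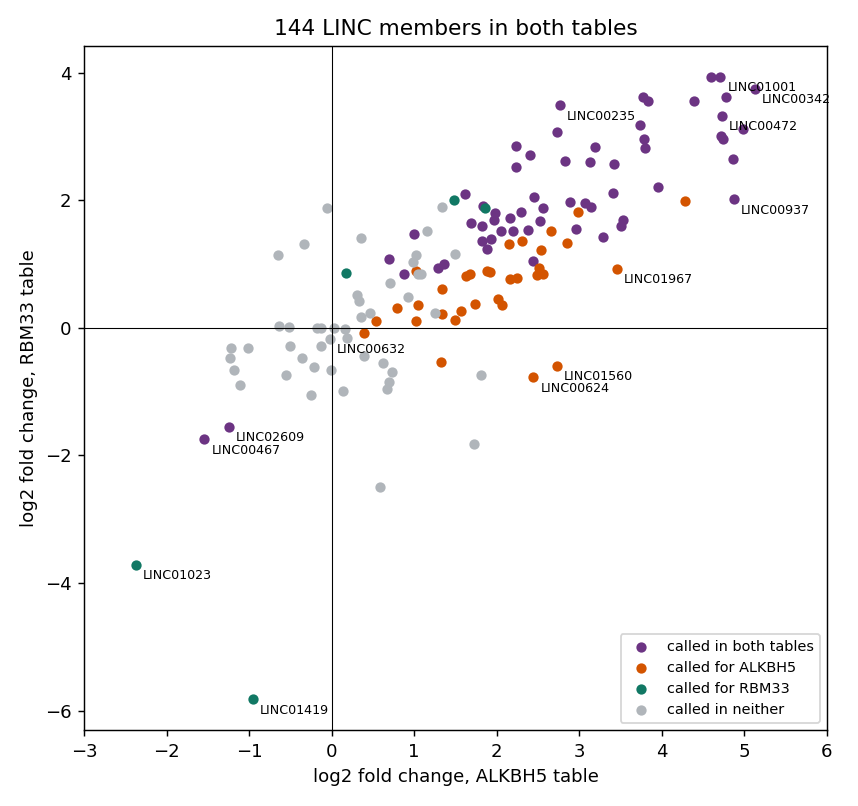
Log2 fold change of each of the 144 LINC members by the authors' deposited table for ALKBH5 (horizontal) and for RBM33 (vertical), coloured by the tables in which the row was called. LINC00342 and LINC01001 lie at the upper right, LINC00467 and LINC02609 at the lower left, and LINC00624 and LINC01560 are positive for ALKBH5 and below 0, not called, for RBM33.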

How the data were processed

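The 16 libraries were grouped by their titles. The submitters' processing notes name edgeR 3.24.3, featureCounts of Subread 1.6.4, HISAT2 2.1.0, cutadapt 1.18 and build hg38. Per the file headers, the authors' deposited values per gene are the log2 fold change, the log2 CPM averaged over libraries, the F statistic (a score) and its p-value, raw and adjusted, beside the listed gene length. No depth per library can be read from them. No source used here gives the annotation release, low-count filter, strand setting or contrast.

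From the deposited tables, LINC members were selected by name and type and counted by sign at an adjusted p under 0.05. The Benjamini-Hochberg adjustment was recomputed over 16324 genes and matched. Overlaps were taken as at least 1 shared base, and sequences came from RefSeq tables of GRCh38.p14. Python 3.11.15, pandas 2.3.3 and matplotlib 3.10.9 were used, and the functions were tested on simulated data.

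The members and lists were chosen with earlier results of these data known. Genes were named by a rule: per table the 10 highest positive and up to 5 lowest negative calls, the 5 most abundant members and the nearest on each side of the threshold. The rule added the 5 largest differences between the tables among members called in at least 1 of them, members called with opposite signs (none was found), the carcinoma list and hosts of listed small RNAs. Other named genes are said to have been chosen after their values were seen, or are overlap partners.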

Additional observations from a re-analysis of the deposited data

How the results depend on the processing

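The number of positive LINC members stayed within 1.5 times its value for ALKBH5 at a threshold of 0.01, with a minimum of 1 log2 unit, with unadjusted p-values and without overlapping members, between 62 and 96 in the authors' deposited table. Limiting the members to those at or above the median abundance of the authors' deposited tables left 20 for ALKBH5, of which 16 were positive, and 16 for RBM33, of which 10 were positive and 2 negative. The share of all listed genes called above this cut is not given here. Positive calls were more frequent among members with more reads, so these counts cannot be set beside the shares over all listed genes. For RBM33, dropping members that overlap another listed gene left 38 positive of 102, and a threshold of 0.01 left 2 negative calls, without LINC01419 and LINC01023. The medians kept their sign and lay between 1.60 and 1.85 for ALKBH5 and between 0.94 and 1.16 for RBM33. Of the 36 members named by rule, 4 lost their call at 0.01 in each of the authors' deposited tables. Of the members named after their values were seen, LINC00461, LINC01106 and LINC01123 lost theirs for RBM33, and LINC02193 for both baits. No paired analysis was possible because the tables hold no value per library, and for the same reason no library could be left out.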

Other observations

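Members near the low-numbered end of a chromosome were grouped after their values were seen, and the group is therefore given with no test. The high-numbered ends were not grouped, and members far along a chromosome included both called and uncalled ones. LINC01962 and LINC00847, far along chromosome 5, were called for neither bait, at 1.09 and 0.92 for ALKBH5 and 0.85 and 0.49 for RBM33 by the authors' deposited tables. LINC02193, far along chromosome 16, was positive for both baits, at 1.62 for ALKBH5 and 2.10 for RBM33 by the authors' deposited tables. So was LINC02348, far along chromosome 15, at 2.23 and 2.85. All of these were picked after their values were seen. All 7 members that start within the first 1 Mb of a chromosome's coordinates were positive for both baits in the authors' deposited tables, against 60.6% of the other 137 for ALKBH5 and 38.7% for RBM33. Of all listed genes, 30.5% were positive for ALKBH5 and 24.0% for RBM33, and the share within the same windows is not given here. Values of the 7 members lay between 1.82 and 4.78 for ALKBH5 and between 1.60 and 3.93 for RBM33 by the authors' deposited tables. They were LINC02887 on chromosome 17, LINC01001 on chromosome 11, LINC01002 on chromosome 19, LINC00235 on chromosome 16, and LINC01409, LINC01128 and LINC02593 on chromosome 1. LINC01001 and LINC01002 share the stretch shown above, and those on chromosome 1 lie near each other, so the 7 are not separate cases. LINC01409 had 3.79 for ALKBH5 and 2.96 for RBM33, LINC02593 3.95 and 2.21, and LINC01128 1.82 and 1.60 in the authors' deposited tables. How reads that match several such places were counted is not stated, and its part in these values was not tested.

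A further 12 rows carry a LINC number but another gene type and are not members. LINC01347, a transcribed unprocessed pseudogene, stood at 3.29 for ALKBH5 (adjusted p = 3.67e-06 by edgeR) and 3.35 for RBM33 (adjusted p = 7.18e-05) by the authors' deposited tables. LINC00888, of the same type, was negative at -1.19 (adjusted p = 0.00914) and -1.50 (adjusted p = 0.0156) in the authors' deposited tables. These rows were picked for their values after these were seen.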
